A study of Mus musculus with 9 samples.

Results

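The cells described are thymocytes that carried 2 productive T cell receptor (TCR) α chains beside a single β chain. They were 1360 of the 26990 barcodes of the series. A cell counted as one when its TCR library listed exactly 1 β contig (TRB) and 2 α contigs (TRA). Members were thus chosen by measured contig numbers. A member also had to carry a single hashtag (10 counts or more, and 4 or more times any other hashtag), 500 or more detected genes and no more than 10% mitochondrial UMIs. A hashtag is an oligonucleotide-tagged antibody that marks the mouse group, and a UMI (unique molecular identifier) marks 1 captured transcript. The comparison cells met the same conditions with 1 TRA contig, and they numbered 9244. Cells without a TRA contig entered neither class, and no barcode had more than 2 contigs of a chain.

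The thymocytes came from adult female mice of 2 groups: WT mice, labelled with hashtag 4, and CD3εI173A mice, labelled with hashtag 6. CD3εI173A mice carry a substitution in CD3ε, a signalling chain that the TCR needs to send its signal inward; the series title calls the mutation one that enhances TCR signalling. Cells were sorted into CD4 single-positive (CD4 SP), CD8 single-positive (CD8 SP) and double-positive (DP) gates, and each gate was run as 1 droplet library with both genotypes in it, read for RNA and for TCR sequence. The age beyond adult, the background strain and the number of mice are not given in the sources used here. RNA counts do not check the genotype, because a single-residue substitution leaves the gene in place.

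The 2-TRA cells numbered 363 WT and 295 I173A cells of CD4 SP, 282 and 279 of CD8 SP, and 51 and 90 of DP, in that genotype order. Every genotype was 1 sample per gate, so no test was made and p-values are left out. Intervals are 95% intervals for counting error only; spread between cells, between mice and from PCR is not in them, and "higher" and "lower" describe these samples.

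In DP thymocytes the α genes are rearranged, long after the β genes. A β chain that works stops further β rearrangement, so most cells keep a single β chain. The α locus has no such stop: both alleles recombine over the same period, and on each allele the first joins use the 5′ end of the TRAJ cluster while later joins replace them with TRAJ genes further 3′. Rearrangement ends when a receptor engages self peptide on MHC strongly enough for positive selection, so a mature cell can keep an in-frame α gene on each chromosome. The joining region between V and J, the CDR3, is specific to a cell and its offspring.

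The first sequences show what such a cell carries. For each gate they come from the cell whose weaker α chain had the most UMIs, and all 3 of these cells were I173A. Each line is the CDR3 as RNA-derived DNA, 5′ to 3′, and capitals mark the bases at the 3′ end that at least 95% of contigs with the same J gene shared; lower case marks the V end and the junction. The CD4 SP cell had 37 UMIs of its TRAV9-4 chain, 26 of its TRAV7-5 chain and 112 of its β chain, which does not end in the whole stretch that contigs with its J gene, TRBJ2-5, shared and so has no capitals.
CD4 SP TRAV9-4 with TRAJ37: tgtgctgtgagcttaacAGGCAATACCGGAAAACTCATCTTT
CD4 SP TRAV7-5 with TRAJ32: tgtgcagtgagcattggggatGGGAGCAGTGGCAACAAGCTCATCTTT
CD4 SP TRBV3 with TRBJ2-5: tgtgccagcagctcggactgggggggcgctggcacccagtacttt

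The CD8 SP cell had 43 and 33 UMIs of its α chains and 38 of its β chain. Both α chains used the same J gene, TRAJ9, behind different V genes, and so end in the same 19 capitals.
CD8 SP TRAV13N-3 with TRAJ9: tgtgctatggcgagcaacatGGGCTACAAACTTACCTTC
CD8 SP TRAV12D-3 with TRAJ9: tgtgctcccatGGGCTACAAACTTACCTTC
CD8 SP TRBV12-2+TRBV13-2 with TRBJ2-3: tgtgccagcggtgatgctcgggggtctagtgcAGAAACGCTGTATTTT

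The DP cell had 14 and 13 UMIs of its α chains and 32 of its β chain. Its J genes, TRAJ48 and TRAJ45, lie 3 TRAJ numbers apart.
DP TRAV6-7-DV9 with TRAJ48: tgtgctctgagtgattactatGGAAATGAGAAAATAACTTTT
DP TRAV19 with TRAJ45: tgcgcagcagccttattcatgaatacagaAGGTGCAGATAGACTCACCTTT
DP TRBV5 with TRBJ2-1: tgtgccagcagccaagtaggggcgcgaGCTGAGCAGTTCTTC

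Cells with 2 α chains were about as frequent in I173A as in WT in the SP gates. In CD4 SP they were 14.2% of cells with 1 or 2 TRA contigs in WT (363 of 2555, interval 12.9 to 15.6%) and 13.4% in I173A (295 of 2205, 11.98 to 14.9%). In CD8 SP they were 13.0% in WT (282 of 2174, 11.6 to 14.5%) and 12.7% in I173A (279 of 2195, 11.3 to 14.2%). The I173A over WT ratio was 0.942 (0.805 to 1.10) in CD4 SP and 0.980 (0.827 to 1.16) for CD8 SP, so both intervals included 1. In DP cells the share was 8.17% in WT (51 of 624, 6.15 to 10.6%) and 10.6% in I173A (90 of 851, 8.59 to 12.8%), with a ratio of 1.29 (0.908 to 1.86) that the counts could not tell from 1.

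The SP shares stood above the DP share in WT by more than counting error. In WT the CD4 SP share was 1.74 times the DP share (1.29 to 2.38) and the CD8 SP share 1.59 times (1.17 to 2.18). In I173A the same ratios were 1.27 (0.996 to 1.62) and 1.20 (0.944 to 1.54), and their intervals reached 1. CD4 SP and CD8 SP shares differed by less than counting error in both genotypes, at 1.10 (0.935 to 1.28) in WT and 1.05 (0.891 to 1.24) in I173A. Detection differed between the gates: 67.8% of WT and 60.01% of I173A DP cells with 1 TRB contig had no TRA contig at all, against 6.99% and 7.66% in CD4 SP and 19.9% and 13.96% for CD8 SP. The part of detection in the lower DP share was not tested. With only contigs of at least 3 UMIs counted, the shares were 13.998% and 12.7% in CD4 SP, 12.2% and 11.3% for CD8 SP, and 7.95% and 10.4% in DP for WT and I173A.

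**Figure D1:**
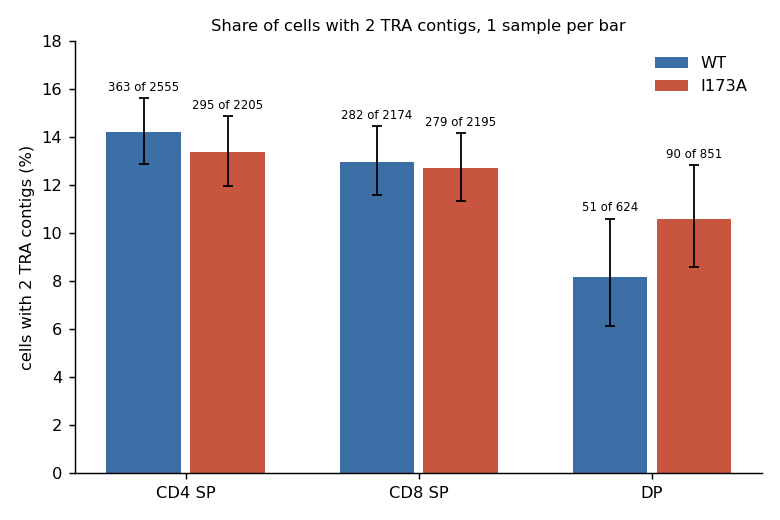
Share of cells with 2 TRA contigs (vertical axis, percent of cells with 1 or 2 TRA contigs and 1 TRB contig) in each gate for WT and I173A, 1 sample per bar, with 95% Clopper-Pearson intervals for counting error. The 4 SP bars lie between 12.7% and 14.2%, and the DP bars at 8.17% and 10.6%.

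The cells in the 2 classes were sequenced to similar depth. Median RNA UMIs per cell, from 1-TRA to 2-TRA cells, were 6147 and 6257 in WT CD4 SP, 5849 and 5928 in I173A CD4 SP, and 3056 and 3257 in WT DP. Across classes of cells with 1 or 2 TRA contigs split at the quartiles of RNA UMIs, the 2-TRA share ranged from 11.9 to 15.2% in CD4 SP, 11.7 to 14.4% in CD8 SP and 8.40 to 11.4% in DP. Members close to the limits of the rule were few. Only 4 members had a hashtag ratio between 4 and 6 (2 in CD4 SP, 2 in CD8 SP, 0 in DP), and 5, 6 and 1 otherwise eligible cells lay just outside, between 2 and 4.

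The UMIs of the chains belong to the rule that chose the cells, and they are given as a description. The median 2-TRA cell of WT CD4 SP had 11 UMIs of its stronger α chain and 6 of its weaker one, against 8 of the single chain in 1-TRA cells. In WT CD8 SP the medians were 8 and 5 against 7, and in WT DP 7 and 4 against 4. The I173A medians were 10 and 6 against 9, 8 and 5 against 7, and 6 and 4 against 4 in the same gates. The median of the stronger chain was at least that of the single chain in all 6 groups. The stronger chain is by definition the larger of 2, so this order would also arise if all chains had the same distribution of UMIs. β chain UMIs were nearly alike in both classes, with medians of 21 and 21 in WT CD4 SP, 17 and 17 in WT CD8 SP, and 18 and 19 in WT DP. The I173A medians were 21 and 24, 17 and 18, and 17 and 19. Summed over the cells of a class, the ratio of α UMIs to β UMIs was 0.417 in 1-TRA and 0.785 in 2-TRA cells of WT CD4 SP, 0.397 and 0.803 in WT CD8 SP, and 0.257 and 0.469 in WT DP.

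The weaker chain was seldom a trace. It held a median of 40.0% of a cell's α UMIs in each of the 3 gates. The weaker chain is by definition the one with fewer UMIs. Its share is thus below 50% in every cell without a tie, also where both chains are equally expressed. The 40.0% therefore does not measure a difference in expression between the chains. It held under 20% in 29 of 658 CD4 SP, 18 of 561 CD8 SP and 6 of 141 DP members. A weaker chain known from a single UMI was found in 12 of 658 CD4 SP cells (1.82%), 23 of 561 CD8 SP cells (4.10%) and 15 of 141 DP cells (10.6%). The DP members therefore rest on the thinnest evidence of the 3 gates.

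**Figure D2:**
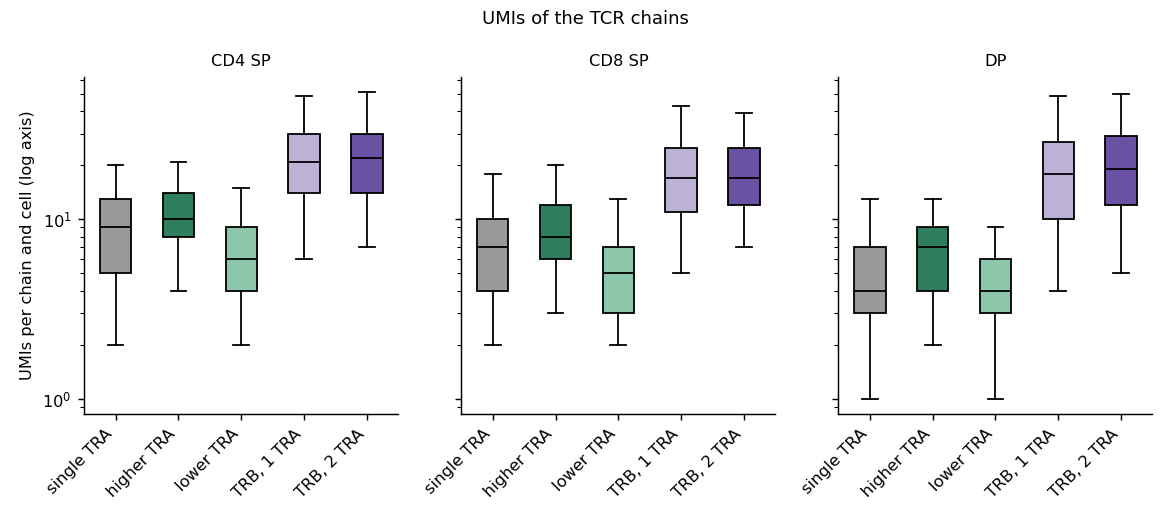
UMIs per chain and cell (vertical log axis) for the single α chain of 1-TRA cells, the stronger (higher TRA) and the weaker (lower TRA) α chain of 2-TRA cells, and the β chain of each class, by gate, with both genotypes together. Boxes show the median and quartiles over cells and whiskers the 5th and 95th percentiles; the weaker chain's box overlaps that of the single chain, and the β boxes of both classes lie at nearly the same height.

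The separate RNA library, which the rule did not use to choose chains, carried both α chains at a similar rate. In CD4 SP, 66.6% of members had an RNA UMI of the V gene of their stronger chain and 64.6% of the V gene of their weaker chain, against 63.3% for the single chain of 1-TRA cells. The corresponding shares were 65.4%, 63.8% and 65.2% for CD8 SP and 68.8%, 68.1% and 67.1% in DP. After each cell was thinned to 3000 RNA UMIs in the SP gates and 1500 in DP, the shares were 62.1%, 58.5% and 57.7% in CD4 SP, 59.4%, 54.2% and 57.9% for CD8 SP, and 62.6%, 58.5% and 55.4% in DP. Cells whose contigs lacked that V family had such a UMI in 0.788 to 1.50% of cases. In this kit both libraries come from the same cDNA, so this compares 2 readouts of the same captured transcripts.

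The constant region gene of the α chain was higher in 2-TRA cells in every gate and genotype. Trac, on chromosome 14 at 54220521 to 54224198 of GRCm38.p6, was at 189 CPM (UMIs of the gene per 1000000 UMIs of the class) in 1-TRA and 244 in 2-TRA cells of WT CD4 SP, and at 211 and 259 in I173A. It was at 157 and 200 CPM in WT CD8 SP, 163 and 209 in I173A CD8 SP, 208 and 291 in WT DP, and 221 and 320 in I173A DP. Its 6 ratios ran from 1.23 (1.11 to 1.35) to 1.45 (1.15 to 1.81). Trac RNA is part of what the contigs count, so this too describes the rule. The β constant genes Trbc1 and Trbc2, which are near-identical copies, had ratios between 0.917 and 1.08. For Cd3e, which the mutation alters, the 6 ratios lay between 0.952 and 1.06.

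The α chains of a cell used J genes that lay closer together than those of different cells. TRAJ genes are numbered against the direction of the locus, so TRAJ61 lies 5′, nearest the V genes (starting at 54155005 on chromosome 14), and low numbers lie 3′, next to Trac; the contigs used TRAJ58 to TRAJ2. The distance between chains was counted in TRAJ numbers. In CD4 SP the mean distance was 7.99 between the chains of the same cell and 15.6 between chains of different 2-TRA cells of the same sample. It was 8.81 against 15.7 in CD8 SP and 9.10 against 16.9 in DP. The chains of a cell were closer in both genotypes: in WT the means were 7.78, 9.20 and 9.14 within cells of the CD4 SP, CD8 SP and DP gates, and in I173A 8.24, 8.42 and 9.08. In base pairs, the median distance within a cell was 6.62 kb, 7.16 kb and 7.13 kb in the CD4 SP, CD8 SP and DP gates.

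**Figure D3:**
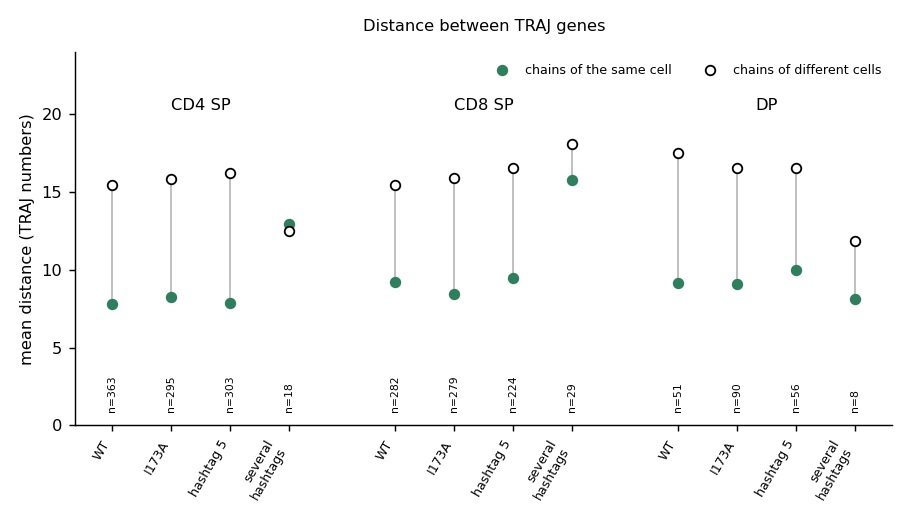
Mean distance in TRAJ numbers between the α chains of the same cell (filled points) and between chains of different cells of the same sample (open points), for each gate and genotype, and for barcodes with hashtag 5 or with several hashtags. In all 6 WT and I173A groups the filled point lies at 7.78 to 9.20, below the open point.

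The TRAJ numbers of the stronger and the weaker chain went together with Pearson's r of 0.703 over 658 CD4 SP cells, 0.640 over 561 CD8 SP cells and 0.656 over 141 DP cells. Spearman's rho was 0.693, 0.642 and 0.664. Cells of a gate share a library, so these are descriptions. The chains lay within 5 TRAJ numbers of each other in 45.4% of CD4 SP (41.6 to 49.3%), 41.2% of CD8 SP (37.1 to 45.4%) and 44.0% of DP members (35.6 to 52.6%). For chains of different cells the same figure was 21.7%, 21.5% and 19.8%. Both chains used the same TRAJ gene in 7.29% of CD4 SP, 4.99% of CD8 SP and 4.26% of DP cells, against 3.09%, 2.98% and 2.70% between cells. With the same-TRAJ pairs left out, the difference of the CD4 SP means went from −7.63 to −6.92.

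The pairing held at both ends of the cluster. Of the 70 CD4 SP cells whose stronger chain used TRAJ61 to TRAJ46, the 5′ part, 46 (65.7%) also had their weaker chain there, although only 11.4% of all weaker chains were. Their weaker chain lay in the 3′ part, TRAJ23 to TRAJ1, in 4.29%, against 40.3% of all weaker chains. When the stronger chain was in the middle part, TRAJ45 to TRAJ24, the weaker one was too in 71.5% of CD4 SP cells, and when it was in the 3′ part, in 69.3%. Of all weaker chains 48.3% were in the middle and 40.3% in the 3′ part. The same-part shares in CD8 SP were 55.6%, 63.1% and 62.9% from the 5′ to the 3′ part, against 13.4%, 48.0% and 38.7% of all weaker chains. In DP they were 39.4%, 59.7% and 73.2%, against 16.3%, 48.9% and 34.8%. The interval of the DP middle part, 47.0 to 71.5%, included its 48.9%. In DP the 33 cells with a 5′ stronger chain more often had their weaker chain in the middle part (57.6%) than in the 5′ part.

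**Figure D4:**
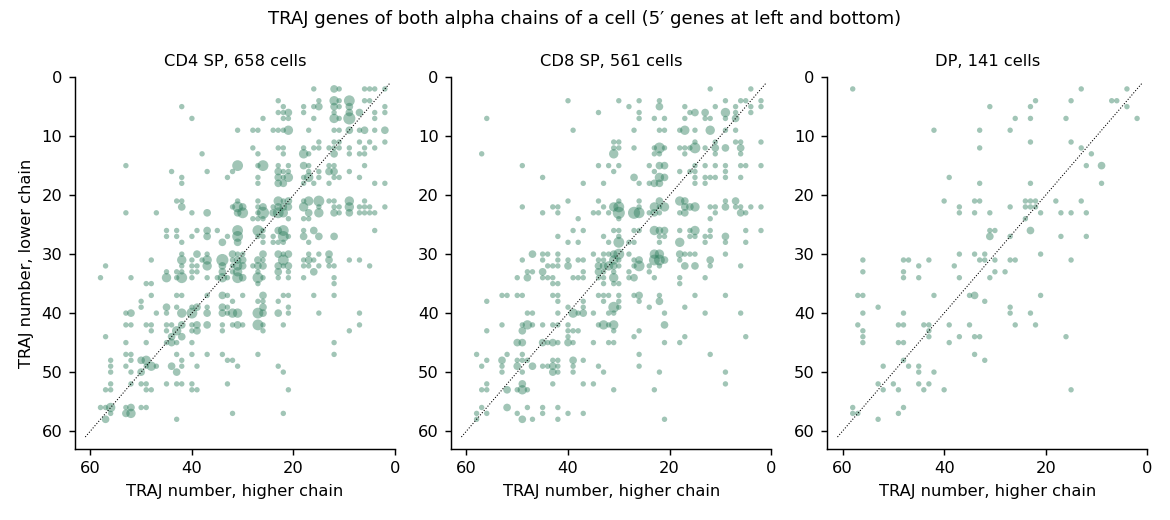
TRAJ number of the stronger chain (horizontal) against that of the weaker chain (vertical) for every 2-TRA cell, by gate, with 5′ genes at the left and bottom and point area proportional to the number of cells. Points gather along the dotted diagonal, with few cells in the corners that would join a 5′ gene with a 3′ gene.

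By group median, the more 5′ chain of a pair lay 5′ of the single chain and the more 3′ chain 3′ of it, as ordering any pair would give. The median TRAJ number of the single chain was 27 in both genotypes of CD4 SP, 30 in both of CD8 SP, and 34 in WT and 33 in I173A DP. The more 5′ chain of a pair had medians of 31 and 32, 31 and 33, and 37 and 37 in those groups, and the more 3′ chain 22 and 24, 22.5 and 23, and 31 and 27. Both classes followed the order of the gates, with the DP medians more 5′ than those of the SP gates. Chains from TRAJ61 to TRAJ46 were a smaller part of all chains in 2-TRA than in 1-TRA cells in each group, from 13.5 to 10.6% in WT CD4 SP, 16.4 to 14.2% in I173A CD8 SP and 19.7 to 17.8% in I173A DP, with the other 3 groups in the same direction. The counting intervals of the classes overlapped in every group. The mean TRAJ number went the other way in I173A CD8 SP (29.4 to 29.7) and WT DP (33.4 to 33.7), so no steady 3′ shift is read from this.

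V genes showed a weaker version of the same pairing. The mean distance between the V genes of a cell was 322 kb, 341 kb and 309 kb in the CD4 SP, CD8 SP and DP gates, against 399.7 kb, 404 kb and 394 kb between cells. The correlation of V positions was 0.268, 0.220 and 0.283 (Pearson's r). Both chains used the same V gene in 5.02% of CD4 SP, 5.17% of CD8 SP and 3.55% of DP members, against 1.70%, 1.80% and 1.84% between cells. The mouse V cluster holds near-identical copies (names with D or N), and how reads were split among them is not known. Pairs that could be a single chain read as 2 were rare: the same V and J gene occurred in 1, 2 and 1 cells of the 3 gates, and an identical CDR3 in 1 CD8 SP cell.

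The α chains of 2-TRA cells also recurred in other barcodes of the library. This applied to 5.93% of stronger and 6.08% of weaker chains in CD4 SP, 4.28% and 8.02% for CD8 SP, and 3.55% of each in DP, against 7.95%, 7.35% and 5.62% of single chains. Cells with the same β sequence as a member formed only 7, 3 and 1 pairs, of which 1, 0 and 1 shared an α chain and 0 shared both. A check of the pairs within clones was therefore not possible at this depth. Barcode strings shared by a pair of libraries numbered 124 between CD4 SP and CD8 SP, 109 between CD4 SP and DP, and 109 between CD8 SP and DP. Of these strings 15, 8 and 7 belonged to a member in one of the libraries, 0 belonged to members in both, and 0 had a chain in common with the namesake.

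The invariant receptor of natural killer T (NKT) cells, TRAV11 joined to TRAJ18, was rare among the members. This semi-invariant chain recognises lipids on CD1d and directs cells into an innate-like fate. In CD4 SP it was found in 37 of 2192 WT 1-TRA cells (1.69%, 1.19 to 2.32%) and 33 of 1910 I173A 1-TRA cells (1.73%, 1.19 to 2.42%). Among 2-TRA cells it was found in 1 of 363 WT cells (0.275%, 0.00697 to 1.52%) and in 0 of 295 I173A cells, a count that allows a share of up to 1.02%. Over cells with any number of TRB contigs, 82 CD4 SP cells had the chain, of which 4 had 2 TRA contigs and 10 (12.2%) had 2 TRB contigs. Of all WT and I173A CD4 SP cells with a TRB contig, 5.64% had 2, and the rule for members leaves such cells out. With 1 or more TRB contigs allowed, the 2-TRA share of CD4 SP was 15.2% in WT and 14.1% in I173A. The MAIT cell chain, TRAV1 with TRAJ33, was present in 0 to 2 cells of each group and allows no comparison.

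The invariant chain is shown because its CDR3 repeats between cells. The first form occurred in 28 CD4 SP cells and the second in 21, and the stretch in capitals is again the J-encoded end. The single WT member carried the first form with 4 UMIs beside a chain that joined the same V gene, TRAV11, to TRAJ6, also with 4 UMIs.
TRAV11 with TRAJ18, first form: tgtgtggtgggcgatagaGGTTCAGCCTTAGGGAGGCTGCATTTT
TRAV11 with TRAJ18, second form: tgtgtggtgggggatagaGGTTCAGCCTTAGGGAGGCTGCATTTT
TRAV11 with TRAJ6: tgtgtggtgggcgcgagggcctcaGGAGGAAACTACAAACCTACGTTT

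The use of single J and V genes differed little otherwise. In CD4 SP, TRAJ18 was 3.88% of single chains and 2.43% of the members' chains (ratio 0.627, 0.415 to 0.922), lowest of the genes that had 30 or more contigs in each class. Its 159 single-chain contigs included the invariant chains of 37 WT and 33 I173A cells, so this ratio is not apart from the NKT result. TRAJ32 was the highest, at 1.88% and 3.42% (1.82, 1.23 to 2.67), followed by TRAV12-2 at 1.66% and 2.66% (1.60, 1.04 to 2.45). By genotype, TRAJ32 was at 2.28% and 3.03% in WT and at 1.41% and 3.90% in I173A. The CD8 SP ratios of TRAJ32 and TRAV12-2 were 1.41 (0.944 to 2.07) and 0.826 (0.561 to 1.19). TRAJ31, at a ratio of 0.879 (0.671 to 1.14) in CD4 SP, was 3.60% of single and 5.44% of the members' chains in CD8 SP (1.51, 1.10 to 2.06). The β gene label TRBV12-2+TRBV13-2, which the files use for a joint call, was 7.14% of 1-TRA and 10.7% of 2-TRA cells there (1.50, 1.11 to 1.99). In DP no V or J gene reached 30 contigs in each class.

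Expression was compared by summing UMIs over the cells of a class. A gene was measured from 100 UMIs upward, with 20 CPM or more in a class of each genotype, 6372, 6055 and 6684 in the CD4 SP, CD8 SP and DP gates. A gene was called when the log2 of its 2-TRA over 1-TRA ratio was at least 0.32 away from 0, in the same direction in both genotypes. In CD4 SP 27 genes were called higher (0.424% of those measured) and 12 lower (0.188%), or 0.612% together. In CD8 SP 39 were called higher (0.644%) and 31 lower (0.512%), or 1.16%. In DP 278 were called higher (4.16%) and 466 lower (6.97%), or 11.1%. A call by size does not weigh the counts behind a ratio, and the DP classes were small. The 95% counting interval left out a ratio of 1 in both genotypes for 44 genes of CD4 SP (0.691%), for 39 of CD8 SP (0.644%) and for 63 of DP (0.943%). TCR genes were left in both kinds of count, so not all counted genes are apart from the rule that chose the cells. Trac, for example, was among the genes called higher in CD8 SP and in DP. Over all measured genes the median log2 ratio lay between −0.04 (WT DP) and 0.01 (WT CD8 SP). The share of all measured genes that were higher or lower in both genotypes at any size is not given here. Such counts for the gene lists are therefore descriptions.

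Of the 12 genes called lower in CD4 SP, Ly6c2, S100a6, Il2rb and Nkg7 are described first. Ly6c2, a surface protein of memory-like T cells, was at 29.4 CPM in 1-TRA and 6.00 CPM in 2-TRA cells of WT, and at 28.4 and 1.03 CPM in I173A. Its ratios were 0.204 (0.113 to 0.341) and 0.0362 (0.00437 to 0.132), the latter from 2 UMIs in the I173A members. S100a6, a calcium-binding protein, was at 40.0 and 4.40 CPM in WT and 38.7 and 9.76 CPM in I173A. Il2rb, the receptor chain for IL-2 and IL-15, was at 46.4 and 29.6 CPM in WT (0.638, 0.495 to 0.813) and 68.7 and 32.3 CPM in I173A (0.471, 0.359 to 0.609). Ly6c2 was carried by few cells, since its UMIs came from 37 of 2192 WT 1-TRA cells and from 5 of 363 WT 2-TRA cells, whereas Il2rb UMIs came from 299 and 44 of these cells.

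TRAV11-TRAJ18 cells were in the 1-TRA class with 37 WT and 33 I173A cells and in the 2-TRA class with 1 cell, so values without them are given beside these genes. Nkg7, a cytotoxic granule protein, was at 30.7 and 16.8 CPM in WT (0.548, 0.390 to 0.753) and 27.4 and 10.8 CPM in I173A (0.394, 0.241 to 0.612). Without the TRAV11-TRAJ18 cells Nkg7 was the other way, at 1.97 (1.29 to 2.93) in WT and 1.92 (1.12 to 3.18) in I173A, with 59.5% of the WT members' UMIs from 1 cell. Its levels without them were 6.93 and 13.6 CPM in WT and 5.61 and 10.8 CPM in I173A. A measured gene needs 20 CPM, so Nkg7 could not be called either way. Il2rb was then at 0.899 (0.691 to 1.15) and 0.714 (0.541 to 0.928), and S100a6 at 0.0988 (0.0360 to 0.217) and 0.844 (0.493 to 1.37), so that their calls and that of Nkg7 rest on the TRAV11-TRAJ18 cells. Ly6c2 was then at 3.92 and 2.01 CPM in WT (0.512, 0.160 to 1.27) and at 4.42 and 1.03 CPM in I173A (0.232, 0.0274 to 0.883), from 5 and 2 UMIs in the members. These levels lie under the 20 CPM a measured gene needs, so the call of Ly6c2 was lost as well. The I173A levels of S100a6 without those cells, 11.6 and 9.76 CPM, also lie under it. List members count as measured from a mean of 5 CPM. Of the CD8 lineage list, 2 of 8 measured genes were called lower (Nkg7 and Il2rb) and 0 higher, beside 0.188% and 0.424% of all measured genes. The list's median log2 ratios were −0.61 in WT and −0.67 in I173A. These values include the TRAV11-TRAJ18 cells, without which neither call held. Of the innate-like T cell list 1 of 7 was called, Il2rb, which both lists hold. Zbtb16, which encodes the master factor PLZF of innate-like cells, was at 6.22 and 0.400 CPM in WT, but at 5.27 and 5.65 CPM in I173A, where 1 cell held all UMIs of the members.

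Lower levels that stayed without the invariant cells included Gadd45b, a stress and NF-κB response gene. It was at 20.8 and 10.8 CPM in WT and at 24.9 and 12.8 CPM in I173A, with ratios of 0.519 and 0.516, and of 0.507 and 0.502 without those cells. Tnfaip3, which encodes the NF-κB inhibitor A20, was at 37.6 and 25.6 CPM in WT (0.682, 0.518 to 0.884) and 37.1 and 24.6 in I173A (0.665, 0.483 to 0.896). Cd69, an early activation marker that also holds cells in the thymus, was at 172 and 146 CPM in WT (0.849, 0.758 to 0.948) and 159.9 and 114 CPM in I173A (0.713, 0.618 to 0.820). Its difference did not reach the size of a call in WT. In the interferon response list 0 of 16 genes were called, beside 0.424% called higher and 0.188% lower among all measured genes. At any size, 10 were lower in both genotypes. Isg15, an interferon-induced ubiquitin-like protein, was at 274 and 237 CPM in WT and 221 and 172.5 CPM in I173A.

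Cd5, whose surface level follows the strength of TCR signals from self ligands, was higher in the CD4 SP members. It was at 535 and 645 CPM in WT (1.21, 1.14 to 1.27) and at 606 and 663 CPM in I173A (1.09, 1.03 to 1.16), below the size of a call. Pdcd1, the inhibitory receptor PD-1, was at 19.1 and 24.4 CPM in WT (1.28, 0.955 to 1.70) and 29.0 and 42.1 CPM in I173A (1.45, 1.13 to 1.85). Tnfsf11, the cytokine RANKL by which CD4 SP cells support medullary epithelium, was at 33.0 and 46.4 CPM in WT (1.41, 1.14 to 1.73) and 41.1 and 53.4 CPM in I173A (1.30, 1.04 to 1.61). Over the TCR signal response list 1 of 26 measured genes was called higher (Pdcd1) and 1 lower (Gadd45b). Among all measured genes 0.424% were called higher and 0.188% lower. Of the 26 genes, 7 were higher and 8 lower in both genotypes at any size. None of the CD4 lineage (10 measured), regulatory T cell (10) or S phase genes (39) was called. Of the 39 S phase genes 23 were higher in both genotypes, with medians of 0.20 and 0.12 (log2). The medians over all measured genes were 0.005 in WT and −0.0001 in I173A. For 0 of the 39 did the counting interval lie above 1 in both genotypes.

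Among the genes called higher in CD8 SP were Nr4a1 and Xcl1. Nr4a1, an immediate early gene that TCR signals switch on, was at 44.7 CPM in 1-TRA and 67.4 CPM in 2-TRA cells of WT (1.51, 1.23 to 1.84), and at 59.4 and 86.6 CPM in I173A (1.46, 1.21 to 1.74). Without the top cell of each class its ratios were 1.26 and 1.34. Xcl1, a chemokine that draws XCR1-bearing dendritic cells, was at 58.6 and 145 CPM in WT (2.48, 2.14 to 2.86) and at 62.8 and 107 CPM in I173A (1.71, 1.45 to 2.01). A single cell held 48% of the Xcl1 UMIs of the WT members and 60% of those of the I173A members, and without the top cells the ratios were 1.73 and 0.911. The call for Xcl1 is thus lost without 1 cell per class.

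Beside Nr4a1 no gene of the TCR signal response list was called in CD8 SP. Of the list's 27 measured genes, 1 was called (Nr4a1), beside 0.644% called higher and 0.512% lower among all measured genes. At any size, 7 were higher and 6 lower in both genotypes. Cd5 was at 224 and 254 CPM in WT (1.14, 1.03 to 1.26) and 239 and 254 CPM in I173A (1.06, 0.960 to 1.18), and Egr1, another immediate early gene, was at 0.879 (0.760 to 1.01) and 0.862 (0.738 to 1.00). Srgn, a granule proteoglycan, had ratios of 1.17 (1.06 to 1.28) and 1.16 (1.06 to 1.26). Copb1, a coat protein of Golgi vesicles, was at 86.3 and 110.3 CPM in WT (1.28, 1.09 to 1.49) and 92.3 and 123 CPM in I173A (1.34, 1.15 to 1.55).

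Genes lower in the CD8 SP members included Anapc2, a subunit of the anaphase-promoting complex. It was at 42.9 and 27.8 CPM in WT (0.649, 0.475 to 0.868) and 45.6 and 29.8 CPM in I173A (0.654, 0.482 to 0.870). Of the 16 genes of the interferon response list 0 were called, beside 0.644% called higher and 0.512% lower among all measured genes. At any size, 10 were lower in both genotypes, with median log2 ratios of −0.12 in WT and −0.04 in I173A. Isg15 was at 244 and 197 CPM in WT (0.804, 0.718 to 0.899) and 217 and 191 CPM in I173A (0.881, 0.784 to 0.989), and Gbp7, an interferon-induced GTPase, had ratios of 0.777 and 0.778. Dntt, which adds N nucleotides at V(D)J junctions, was at 19.8 and 11.1 CPM in WT (0.563, 0.338 to 0.890) and 18.5 and 13.2 CPM in I173A (0.714, 0.443 to 1.10). Rag1, the recombinase, was at 2.52 and 1.30 CPM in the 1-TRA classes, from 30 and 15 UMIs, and had no UMI in either 2-TRA class. Both genes lie under the 20 CPM a measured gene needs and could not be called, and few Rag1 UMIs would fall in the smaller 2-TRA classes in any case.

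The DP members had lower Rag1 and higher Cd5. Rag1 was at 981 CPM in 1-TRA and 667 CPM in 2-TRA cells of WT (0.681, 0.564 to 0.815), and at 959.7 and 751 CPM in I173A (0.783, 0.678 to 0.900). Cd5 was at 419 and 583 CPM in WT (1.39, 1.13 to 1.70), and at 551 and 919.9 CPM in I173A (1.67, 1.46 to 1.91). Without the top cell of each class Cd5 was at 1.249 and 1.62, and its WT ratio then missed the size of a call. Rag1 was thus lower and Cd5 higher in both genotypes, beyond counting error.

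Of the TCR proximal signalling list 0 of 16 genes were called in DP, beside 4.16% called higher and 6.97% lower among all measured genes. At any size, 5 were higher and 2 lower in both genotypes. Single genes called higher elsewhere included Cd2, Tox and Cd27. Cd2, an adhesion receptor, was at 277 and 418 CPM in WT (1.51, 1.18 to 1.92) and 311 and 403 CPM in I173A (1.30, 1.06 to 1.58). Tox, a factor that rises with positive selection and is needed for the CD4 lineage, was at 322 and 429 CPM in WT (1.33, 1.04 to 1.68) and 348 and 524 CPM in I173A (1.50, 1.26 to 1.79), and at 1.17 and 1.44 without the top cells. Cd27, a TNF receptor family member, was at 656 and 821 CPM in WT and 737 and 941 CPM in I173A, with ratios of 1.251 and 1.28. Prkcq, the kinase PKCθ of the T cell synapse, had ratios of 1.40 (1.00 to 1.91) and 1.41 (1.10 to 1.78), and Rasgrp1, which links the TCR to Ras, 1.23 (1.01 to 1.50) and 1.21 (1.04 to 1.39).

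Rgs10, a regulator of G protein signalling, was at 338 and 529.6 CPM in WT (1.57, 1.26 to 1.94) and 421 and 658 CPM in I173A (1.56, 1.33 to 1.83). Arap2, a GTPase-activating protein, was at 202 and 371 CPM in WT (1.84) and 284 and 410.0 CPM in I173A (1.44). H2-T23, the non-classical class I gene for Qa-1, had ratios of 1.35 and 1.49, with reads that near-identical H2 genes may share. Itm2a, which is known to rise at positive selection, was on the other side, at 336 and 228 CPM in WT (0.679, 0.487 to 0.924) and 412 and 293 CPM in I173A (0.711, 0.563 to 0.888), with ratios of 0.283 and 0.657 without the top cells. Selection genes were thus not higher as a set in both genotypes. Of the TCR signal response list 2 of 24 were called higher (Cd5 and Tox) and 2 lower, beside 4.16% and 6.97% of all measured genes. The list's median log2 ratios were −0.25 in WT and 0.24 in I173A.

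**Figure D5:**
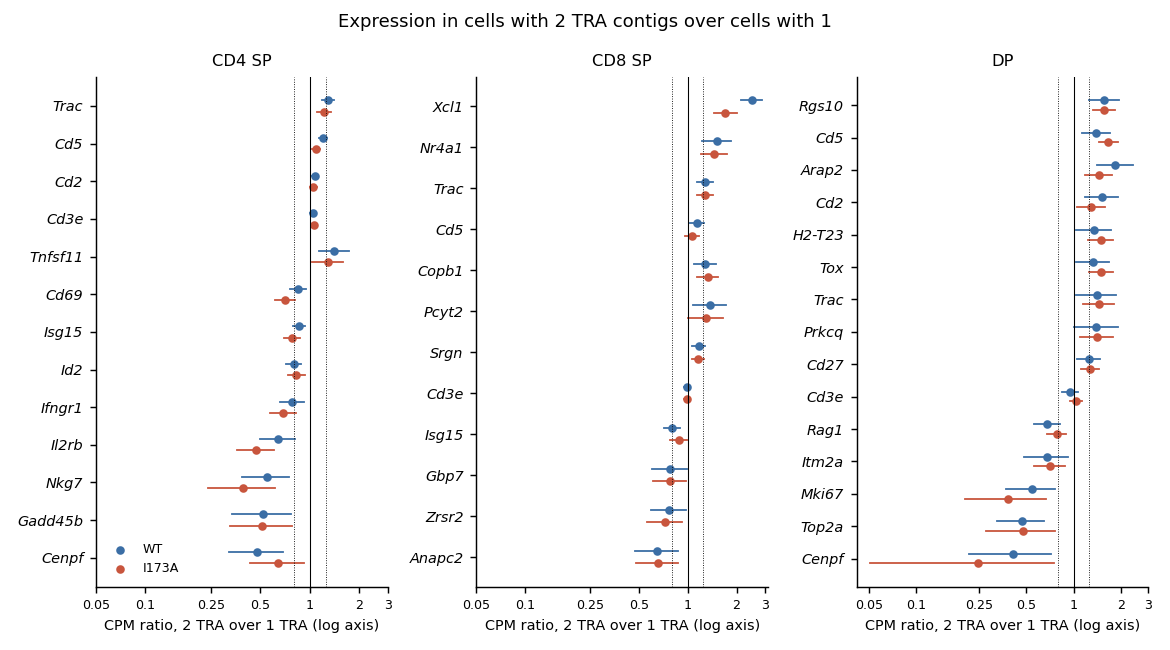
Ratio of CPM in 2-TRA over 1-TRA cells (horizontal log axis) for named genes of each gate in WT and I173A, with 95% Poisson intervals for counting error. Dotted lines mark the ratio a call needs; in DP, Cd5 lies right of 1 and Rag1 left of it in both genotypes.

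The remaining stage genes of the DP gate were not uniformly lower. Of the V(D)J recombination list, 2 of 13 measured genes were called lower and 0 higher, beside 6.97% lower and 4.16% higher among all genes tested. Rag2, the partner of Rag1, had ratios of 1.02 (0.757 to 1.36) in WT and 0.749 (0.562 to 0.981) in I173A. Dntt was lower beyond counting error in I173A only, at 1.12 (0.990 to 1.26) in WT and 0.781 (0.690 to 0.881) in I173A. So was Bcl2l1, the survival gene that DP cells depend on, at 1.08 (0.701 to 1.61) and 0.397 (0.224 to 0.654). Of the maturation and egress list 3 of 20 genes were called higher and 1 lower, against the same shares, but Klf2, the factor that switches on egress, had 89.5% of its WT members' UMIs in 1 cell. Differences between the genotypes were not tested.

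The immediate early genes Nr4a1 and Egr1 were higher beyond counting error in the I173A DP members, while both WT intervals included 1. Nr4a1 was at 96.1 and 63.6 CPM in WT (0.661, 0.336 to 1.18) and 101 and 214 CPM in I173A (2.11, 1.57 to 2.80), and Egr1 at 291 and 238 CPM in WT (0.818, 0.590 to 1.11) and 298 and 568 CPM in I173A (1.91, 1.60 to 2.26). Without the top cells Nr4a1 was at 0.419 in WT and 1.18 in I173A, and without cells with a UMI of Mki67 or Top2a it was at 1.45 and 1.02. The difference between the genotypes was not tested.

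Mitosis genes were lower in the DP members. Of the 45 measured genes of the G2/M list 23 were called lower and 0 higher, where 6.97% of all measured genes were called lower, and 39 were lower in both genotypes, with median log2 ratios of −0.80 in WT and −1.08 in I173A. Mki67, a marker of cycling cells, was at 331 and 180.1 CPM in WT (0.544, 0.373 to 0.768) and 116 and 44.8 CPM in I173A (0.385, 0.203 to 0.669). Top2a, the topoisomerase that untangles replicated chromosomes, was at 409 and 191 CPM in WT (0.467, 0.325 to 0.651) and 130.3 and 62.0 CPM in I173A (0.476, 0.278 to 0.764). Cenpf, a kinetochore protein, was at 167 and 68.9 CPM in WT and 41.7 and 10.3 CPM in I173A, the last from 3 UMIs.

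Shares of cells with a UMI were a separate measure. A UMI of Mki67 or Top2a was found in 26.9% of 1-TRA and 39.2% of 2-TRA WT DP cells, and in 19.3% and 18.9% of I173A DP cells. Thinned to 1500 UMIs per cell, the shares were 18.1% and 23.7% in WT and 12.3% and 10.4% in I173A. Because the WT share and the WT level go opposite ways, no order is read from the share. A single cell held 47.1% of the Mki67 UMIs of the WT members and 23.1% of those of the I173A members, and without the top cells its ratios were 0.329 and 0.372. Without cells that had a UMI of Mki67 or Top2a, Rag1 was at 0.678 and 0.684 and Cd5 at 1.65 and 1.54, differences of similar size to those in all cells, while the mitosis gene Ube2c, at 0.593 and 0.454 in all cells, was at 1.21 and 1.16. Of the S phase list 5 of 41 genes were called lower and 1 higher, where 6.97% of all genes tested in DP were called lower and 4.16% higher.

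Within the members, a more even split between the chains did not go with a steady shift in these genes. In WT CD8 SP, Nr4a1 was at 103 CPM in members whose weaker chain held at most the median share and at 29.8 CPM in the rest. Of Trac, Cd3e, Cd5 and Nr4a1, the genes examined in this way, none was higher in the same part of the members in all 6 groups.

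Markers of the sort and of other cells were as follows. Cd4 was at 365 to 395 CPM in both classes of the CD4 SP gate, Cd8a at 1057 to 1288 CPM and Cd4 at 0 to 1.26 CPM in CD8 SP, and the DP cells had Rag1 together with both coreceptors. Of the other-cell lists in CD4 SP, B cell genes summed to 61.1 to 74.9 CPM, myeloid genes to 136 to 163 CPM and erythroid genes to 0 to 8.82 CPM over the 4 groups. For CD8 SP the sums were 151 to 162 CPM for B cell, 126 to 146 CPM for myeloid and 0 to 0.0843 CPM for erythroid genes. In DP, B cell genes summed to 460.1 to 479 CPM, myeloid genes to 193 to 247 CPM and thymic stroma genes to 74.2 to 116 CPM. Ms4a1 of B cells and Krt8 and Psmb11 of epithelium were at 0 in every class. Genes of γδ T cells summed to 3.34 to 21.6 CPM over all gates. None of the B cell and myeloid genes was called in the SP gates. In DP 1 of 2 measured myeloid genes was called lower, beside 6.97% of all measured genes.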

How the data were processed

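The analysis used 3 RNA libraries and the 3 TCR libraries of the same droplets, 1 pair per gate, with hashtag counts beside the genes. The values are raw UMI counts per gene and barcode, deposited by the authors. The submitters' processing notes name Cell Ranger 6.0.1 and the builds GRCm38 and mm10; a different software version, 3.1.0, stands in the matrices, per the file headers. The TCR tables give contigs with their UMI counts, as deposited by the authors; all listed contigs are marked productive. Other filters before deposit are not given in the sources used here. Barcodes were already limited to called cells, 9081, 9239 and 8670 in CD4 SP, CD8 SP and DP, with 60770018, 65934387 and 31269793 gene UMIs.

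Hashtag 4 marks WT and hashtag 6 I173A, per the labels. Barcodes with several hashtags were left out, no doublet caller was run here, and doublets of the same hashtag remain. The members, the 20 gene lists and the rules were chosen with earlier results of these data known. Per gate the text names 8 genes at the top and 8 at the bottom of the ratios, ranked by the genotype with the smaller change and leaving out TCR, immunoglobulin, mitochondrial, ribosomal, haemoglobin and provisional names; 22 genes always named; and up to 3 genes at each end of each list, from genes with a mean of at least 5 CPM. Genes whose counting interval left out 1 in both genotypes, such as Cd27, Arap2 and Rgs10, were named after their values were seen. Genes of a list below 100 UMIs or 20 CPM are in its count if they reached 5 CPM, but could not be called.

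Shares carry exact Clopper-Pearson intervals and ratios of counts exact conditional Poisson intervals, all at 95%. Zero counts allow 3 counts of the total. Thinned shares are exact expectations. Computation used Python 3.11.15, NumPy 2.4.6, SciPy 1.17.1 and pandas 2.3.3, and the ratio and interval code was tested on simulated data. Coordinates are from RefSeq, GRCm38.p6, matched by symbol for 89 of 89 TRAV genes, 43 of 43 TRAJ genes and 134 of 141 named genes. Counts of overlapping or antisense genes and of near-identical copies may be split in ways not given in the sources used here. Alternatives were a higher contig minimum, stricter hashtag, gene and mitochondrial limits, several β chains, depth weighting, other expression filters, cells without Mki67 or Top2a, and totals without TCR genes.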

Additional observations from a re-analysis of the deposited data

Results flagged for a closer look

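Egr1 in CD4 SP had opposite values by genotype. The 2-TRA over 1-TRA ratio was 0.780 in I173A (0.697 to 0.871) and 1.24 in WT (1.15 to 1.35), both beyond counting error, and the difference between the genotypes was not tested.

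Mki67 in CD8 SP also had opposite values, at 1.44 in I173A (1.27 to 1.62) and 0.839 in WT (0.728 to 0.963). Cells with a UMI of Mki67 or Top2a were 17.5% of 1-TRA and 19.5% of 2-TRA cells in WT and 16.5% and 21.1% in I173A. The difference was not tested.

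Barcodes with several hashtags, which hold cells of more than 1 group and were used in no comparison, had a 2-TRA share among those with 1 β contig of 22.2% in CD4 SP (18 cells, 13.7 to 32.8%), 23.8% in CD8 SP (29 cells, 16.5 to 32.3%) and 8.89% in DP (8 cells, 3.92 to 16.8%). The WT shares were 14.2%, 13.0% and 8.17%. Their α chains had a mean TRAJ distance of 12.9 within a barcode and 12.5 between barcodes in CD4 SP, 15.8 and 18.1 for CD8 SP, and 8.12 and 11.9 in DP. If same-hashtag doublets formed in proportion to the hashtags, 6.13, 10.1 and 2.57 of the members would be expected to be doublets (0.931%, 1.81% and 1.82%).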

How the results depend on the processing

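The I173A over WT ratios of the 2-TRA share kept their direction under every alternative run and ranged from 0.909 to 0.952 in CD4 SP, 0.926 to 0.984 in CD8 SP and 1.26 to 1.32 in DP. The closer TRAJ genes within a cell and the median share of the weaker chain also kept theirs. With same-TRAJ pairs left out, an alternative chosen after seeing the data, the CD4 SP difference in mean TRAJ distance was −6.92. The counts of called genes depended on the filter. With 200 UMIs and 50 CPM required they were 7, 12 and 298 in the CD4 SP, CD8 SP and DP gates, and with no filter 2228, 2114 and 3052. Calling by the counting interval, chosen after seeing the data, gave 39 in CD8 SP and 63 in DP. Without cells with a UMI of Mki67 or Top2a, CD8 SP had 119 called genes, of which 36 were among the 70 of all cells, and DP had 713, of which 305 were among the 744. Without TRAV11-TRAJ18 cells, chosen after seeing the data, 42 genes were called in CD4 SP, 32 of them among the 39. The log2 ratio of Nkg7 nearest 0 then became 0.94, at levels under 20 CPM in both genotypes. Ube2c in DP became 0.22 without cells with a UMI of Mki67 or Top2a. Leaving out each gene's top cell, also chosen after seeing the data, ended 11 calls or interval results among the named genes, and totals without TCR and immunoglobulin genes ended none. No paired analysis was possible because each genotype was 1 sample per gate.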

Other observations

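Cells with hashtag 5, to which the labels give no genotype, entered no comparison. Their 2-TRA share was 13.1% in CD4 SP (303 of 2310), 11.2% in CD8 SP (224 of 2005) and 7.92% in DP (56 of 707). The mean TRAJ distance between the α chains of a cell was 7.87, 9.50 and 10.0 in the CD4 SP, CD8 SP and DP gates, against 16.2, 16.5 and 16.5 between cells. Among WT and I173A members whose weaker chain had a single UMI, the distance within a cell was 13.9 over 12 CD4 SP cells, 13.2 over 23 CD8 SP cells and 7.53 over 15 DP cells.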
